A study of Homo sapiens with 6 samples.

Results

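The 9 PI3K, AKT and FOXO genes were described in RNA-seq libraries of IGF2BP1 knock-down cells (IGF2BP1-KD) and negative control cells (IGF2BP1-NC). They were PIK3CA, PIK3CB and PIK3CD for the catalytic subunits, PIK3R1 and PIK3R3 for the regulatory subunits, AKT1 and AKT2 for the kinases, and FOXO1 and FOXO3 for the transcription factors. These 9 of the 20030 genes in the count table were chosen by symbol with their values in the same 6 libraries already known, so their differences between the groups are given as a description with an interval and no p-value, and the number past the threshold of the fit over all genes is set beside the background only. All 9 passed the filter on low counts, as did 11994 genes in all.

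The cells were labelled NCI-H929, an established multiple myeloma line. The control group comprised 3 libraries of cells with the IGF2BP1 negative control, and the knock-down group 3 libraries of cells with IGF2BP1 KD, without further treatment in the labels. Knock-down used lentiviral shRNA in the GV112 vector, in which a U6 promoter drives the shRNA, and stable transfectants were selected with puromycin. Whether single clones were taken is not given in the sources used here. The labels gave neither which of 2 shRNA targets was used nor whether replicates were separate cultures, so the p-values below measure only the spread between these samples.

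PI3K is a heterodimer of a catalytic and a regulatory subunit that is recruited to activated receptors and their adaptors and makes the lipid PIP3 at the plasma membrane. PIP3 brings AKT to the membrane, where PDPK1 and the mTOR complex containing RICTOR phosphorylate it, and lipid phosphatases end the signal. Active AKT phosphorylates the FOXO factors, which then leave the nucleus bound to 14-3-3 proteins, so their target genes are controlled through protein location as well as through FOXO transcript level. In blood cancers the axis is known for its control of survival, cell cycle entry and metabolism, and transcript levels do not show the phosphorylation on which it works.

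Library totals lay between 16885449 and 18112179 counts, at which a count of 0 allows up to 3 counts, for counting error only. IGF2BP1 itself had 7550, 6904 and 8055 counts in the control libraries and 2193, 1980 and 2019 in the knock-down libraries (log2 fold change -1.85, SE 0.07). Of the plasma cell markers, 7 of 15 had at most 3 counts in every library, among them TNFRSF17, IRF4, CD38 and POU2AF1, and the summed level of the list was 78.1 to 164 CPM in the controls and 82.5 to 88.6 CPM in the knock-down libraries. All 18 erythroid genes exceeded 1 CPM in every library, at 8730 to 9857 CPM in the controls and 8671 to 9572 CPM in the knock-down libraries in sum. SDC1, PRDM1 and XBP1 of the plasma cell list exceeded 1 CPM in every library, XBP1 at 1181 to 2689 counts, and SLAMF7 had 4 to 5 counts in the controls and 42 to 181 in the knock-down libraries. The libraries thus lacked several defining markers of the labelled cell type and carried those of the red cell lineage. The granulocyte list summed to 3.1 to 4 CPM in the controls and 4.1 to 26.8 CPM in the knock-down libraries, and 1 of its 9 genes had at most 3 counts throughout. In this list the knock-down libraries differed. S100A8, S100A9 and LTF had 3, 7 and 4 counts in IGF2BP1-KD 1 but 47 to 164 in IGF2BP1-KD 2 and 3, beside 2 to 9 in the controls. CSF3R had 23, 26 and 54 counts in the knock-down libraries and 1 to 4 in the controls. The megakaryocyte list summed to 19.5 to 43.1 CPM in the controls and 39.3 to 44.8 CPM in the knock-down libraries, with GP1BA, GP9 and PF4 at no more than 3 counts. The part of these other lineages in the values below was not tested, and in bulk RNA fewer cells of a type cannot be told apart from less RNA per cell.

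The shRNA targets are shown because the results turn on the knock-down and because short matches to them occur in members. The target sequences from the study's supplementary methods, with the 7 bases that pair with bases 2 to 8 of the guide strand in capitals, were:
Target 1: cagggaagaatctATGGCAAa
Target 2: acagtagagaactGTGAGCAa
No member mRNA in GENCODE release 44 held a full target. The 7-base match of target 1 was in the 3′ UTR of none of the 9 members and of 11.6% of 18399 genes. The match of target 2 was in the 3′ UTR of 3 members, FOXO1, FOXO3 and PIK3CA, and of 10.6% of all genes. These shares were not adjusted for 3′ UTR length, with a median of 3533 bases in members and 1074 in all genes. FOXO1 held the match of target 2 at positions 7 and 2770 of a 3′ UTR of 3382 bases. FOXO3 held it at position 1017 of 4982, and PIK3CA at position 3303 of 5729. These sites, with the match in capitals, were:
FOXO1, position 7: gggttaGTGAGCAggttacactt
FOXO1, position 2770: atgtatcccaGTGAGCAgtaaatcaat
FOXO3, position 1017: gaacttacagGTGAGCAttaagcttgc
PIK3CA, position 3303: taaaaaaattGTGAGCAgcctatttga
Among tested genes, 12.3% of the 179 with at least 2 matches of target 2 were lower in IGF2BP1-KD, 16.2% of the 1159 with 1 match, the class of FOXO3 and PIK3CA, and 14.5% of the 10087 without one. A match of these letters is a description and does not show that the guide bound the site.

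The members spanned almost the whole range of expressed genes. FPKM divides by a gene length, and the lengths that the authors used are not given in the sources used here. The counts and FPKM imply lengths above those of the transcripts described below, most clearly for FOXO3, FOXO1 and AKT2. Comparisons between genes in FPKM, here and below, therefore depend on these lengths. The order in FPKM by the median of the 6 libraries was AKT1 (56.0), AKT2 (22.8), PIK3CB (20.2), PIK3CD (5.78), PIK3CA (3.42), FOXO3 (3.24), PIK3R1 (1.76), PIK3R3 (0.308) and FOXO1 (0.203). AKT1 stood at percentile 89.7 of the tested genes and FOXO1 at percentile 4.5. Overlap in range between neighbours was seen for 3 pairs. AKT2 was above PIK3CB in 4 of 6 libraries, PIK3CA above FOXO3 in 3 of 6, and PIK3R3 above FOXO1 in 5 of 6. The other neighbours did not overlap in any library, so AKT1 was above AKT2, PIK3CB above PIK3CD, PIK3CD above PIK3CA, FOXO3 above PIK3R1 and PIK3R1 above PIK3R3 throughout.

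**Figure D1:**
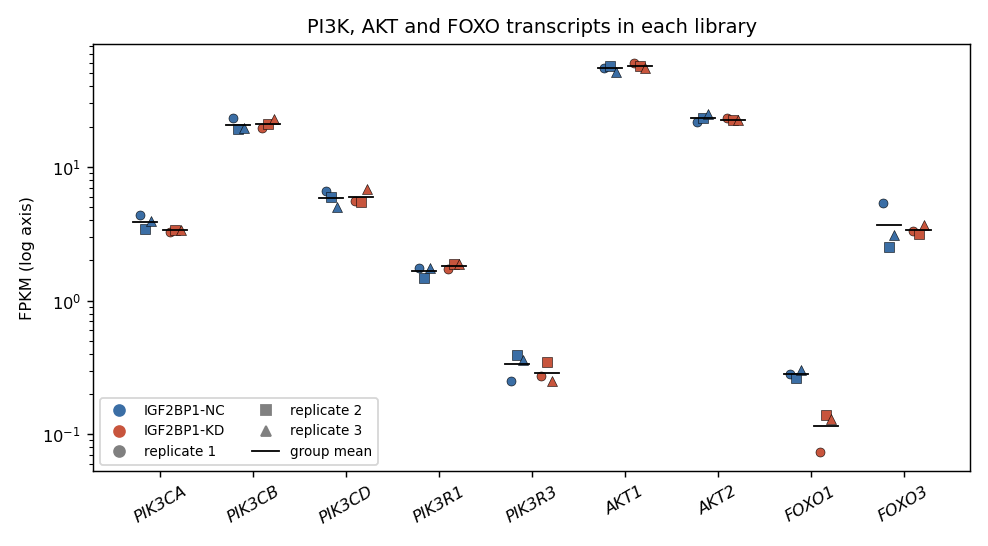
FPKM of the 9 members on a log axis, with 1 point for each of the 3 IGF2BP1-NC and 3 IGF2BP1-KD libraries, replicate numbers as symbols and group means as bars. AKT1 sits between 51.6 and 59.4 in every library, FOXO1 is between 0.266 and 0.303 in the controls and between 0.0739 and 0.140 in the knock-down libraries, and FOXO3 of control library 1 stands above the rest at 5.38.

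The differences between the groups were small for the enzymes and largest for FOXO1. Of the 9 members, 1 had an adjusted p under 0.05 in the fit over all genes (edgeR), which is 11.1% beside 28.2% of all 11994 tested genes. That member was FOXO1, lower in IGF2BP1-KD, where 0 members were called higher, beside 14.5% of all genes lower and 13.7% higher. The groups did not overlap in CPM for 2 members, FOXO1 and PIK3CA, beside 45.9% of all tested genes. Since the members were chosen with these values known, nothing is read from either share. The median log2 fold change of the members was -0.06 and that of all tested genes -0.01.

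PIK3CA (NCBI gene 5290, chr3:179148114-179240093, plus strand of GRCh38) encodes p110α, a broadly expressed catalytic subunit and frequent target of activating mutations in cancer. It had 704, 562 and 669 counts in IGF2BP1-NC libraries 1, 2 and 3 and 549, 539 and 555 in the IGF2BP1-KD libraries. All 3 knock-down libraries were thus below all control libraries, and they lay closer together than the controls. In FPKM the levels were 3.90 ± 0.45 (SD, n = 3) and 3.36 ± 0.07 (SD, n = 3). The log2 fold change was -0.23 (SE 0.09, 95% interval -0.42 to -0.03), a fold of 0.854. Leaving out 1 library at a time kept it between -0.30 and -0.16.

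KCNMB3, a potassium channel subunit gene on the opposite strand, overlaps PIK3CA. The library kit was a stranded one, but the strand setting of the counting is not given in the sources used here. It had 563, 518 and 497 counts in the controls and 388, 374 and 359 in the knock-down libraries, so it was lower in the same libraries (log2 fold change -0.49, SE 0.09). Whether reads of KCNMB3 entered the PIK3CA counts was not tested. The promoter of PIK3CA is shown because it alone among the members held the forkhead element TGTTTAC, the letters to which FOXO factors bind. The element was in 1 of 9 member promoters and in 2.27% of 14994 RefSeq promoters, searched on both strands in the 250 bases before the RefSeq gene start. That start differs from the GENCODE start given above, so most of the PIK3CA window lies inside the GENCODE gene. The G-rich box GGGCGG of SP family factors was in 9 of 9 member promoters and in 56.6% of all. The 2 motifs share no bases in the sequence below, where both are in capitals, read on the plus strand at chr3:179148107-179148356 of GRCh38.p14:
PIK3CA promoter: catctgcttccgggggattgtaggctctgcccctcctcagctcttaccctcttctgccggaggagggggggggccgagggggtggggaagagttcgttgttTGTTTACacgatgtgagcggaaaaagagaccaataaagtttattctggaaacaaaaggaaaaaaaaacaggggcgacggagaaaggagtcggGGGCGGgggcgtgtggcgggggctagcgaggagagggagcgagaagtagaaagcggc

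PIK3CB (NCBI gene 5291, chr3:138652698-138834928, minus strand) encodes p110β, which also responds to G protein-coupled receptors. It was the most abundant catalytic subunit, with 2711, 2266 and 2399 counts in the controls and 2380, 2385 and 2694 in the knock-down libraries. The groups overlapped, with control library 1 and knock-down library 3 as the highest. Levels were 20.6 ± 2.16 and 21.04 ± 1.61 FPKM (SD, n = 3 each). The log2 fold change was 0.02 (95% interval -0.15 to 0.20).

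PIK3CD (NCBI gene 5293, chr1:9629889-9729114, plus strand) encodes p110δ, the leukocyte-enriched subunit. Its counts were 701, 640 and 555 in the controls and 614, 562 and 732 in the knock-down libraries. The groups overlapped over nearly their whole range, and the spread within each group (CV 13.8% and 13.1%) was the widest of the catalytic subunits. The log2 fold change was 0.01 (95% interval -0.24 to 0.27). CLSTN1, on the opposite strand of PIK3CD, had 981 to 1176 counts in the 6 libraries.

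The mix of catalytic subunits kept its order in all libraries. PIK3CB made up 67.8% ± 0.79 of the summed FPKM of the 3 in the controls and 69.3% ± 0.75 in the knock-down libraries (SD, n = 3 each), with control shares of 67.8%, 67.0% and 68.6% below the knock-down shares of 68.8%, 70.2% and 69.0%. PIK3CD made up 19.3% ± 1.70 and 19.6% ± 1.22. PIK3CA made up 12.9% ± 0.91 and 11.1% ± 0.70, and its 3 knock-down shares of 11.5%, 11.5% and 10.3% lay below the control shares of 12.8%, 12.0% and 13.8%. Their sum was 30.3 FPKM in both groups (SD 3.17 and 2.37). PIK3CG, the class IB subunit p110γ and not a member, took 21.5% ± 3.48 and 20.9% ± 1.47 when counted with the 3 members. With PIK3CG counted, the PIK3CB shares overlapped, at 50.8%, 52.8% and 56.2% in the controls and 54.7%, 56.4% and 53.4% in the knock-down libraries. Those of PIK3CA stayed apart, at 9.56%, 9.48% and 11.3% against 9.13%, 9.23% and 7.97%.

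PIK3R1 (NCBI gene 5295, chr5:68215740-68301821, plus strand) encodes p85α and shorter isoforms, which hold and stabilise the catalytic subunits. Its counts were 297, 252 and 311 in the controls and 299, 308 and 318 in the knock-down libraries. The knock-down libraries lay within the upper part of the control range or just above it. Levels were 1.67 ± 0.16 and 1.82 ± 0.09 FPKM (SD, n = 3 each), with a log2 fold change of 0.11 (95% interval -0.12 to 0.35).

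PIK3R3 (NCBI gene 8503, chr1:46040140-46133036, minus strand) encodes p55γ, a short regulatory subunit. It had 27, 42 and 40 counts in the controls and 30, 36 and 27 in the knock-down libraries. At these counts the groups overlapped fully and the interval was wide (log2 fold change -0.22, 95% interval -0.82 to 0.38). A readthrough gene, P3R3URF-PIK3R3, overlaps PIK3R3 on the same strand and is absent from the count table. Whether its reads entered the PIK3R3 counts was not tested, so their assignment is uncertain.

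The 2 regulatory members together reached 2.00 ± 0.12 FPKM in the controls and 2.11 ± 0.12 in the knock-down libraries (SD, n = 3 each), far below the catalytic sum. PIK3R1 made up 83.2% ± 4.14 and 86.3% ± 1.88 of it. With PIK3R2, which encodes p85β and is not a member, the class sum was 29.1 ± 4.58 and 30.7 ± 1.11 FPKM, near that of the catalytic subunits. PIK3R2 supplied 91.6% to 94.0% of it in the 6 libraries.

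**Figure D2:**
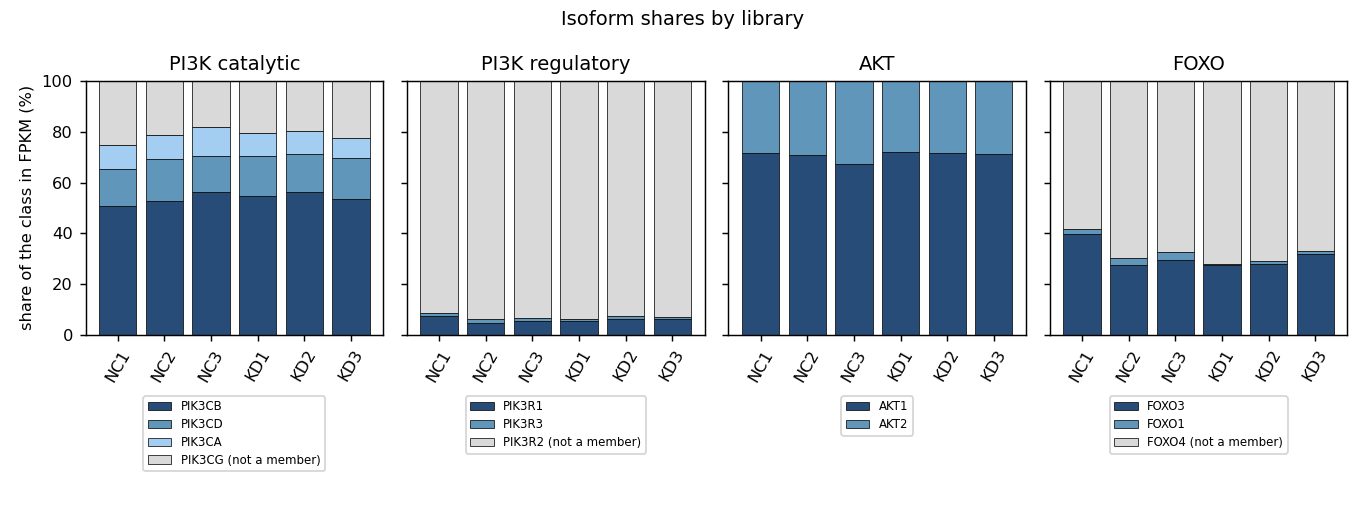
Share of each gene in the summed FPKM of its class (percent, axis from 0 to 100), stacked for each of the 6 libraries, with the paralogs that are not members in grey. PIK3CB is the largest catalytic band, PIK3R2 fills 91.6% to 94.0% of the regulatory class, AKT1 is the larger AKT band, and the FOXO1 band is thin in all libraries.

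AKT1 (NCBI gene 207, chr14:104769349-104795751, minus strand) is the broadly expressed AKT kinase tied to growth and survival. Its counts were 3092, 3227 and 3036 in the controls and 3452, 3132 and 3093 in the knock-down libraries. The groups overlapped, and in counts knock-down library 1 alone was above every control. Levels were 54.5 ± 2.72 and 57.1 ± 2.36 FPKM (SD, n = 3 each), and the log2 fold change was 0.05 (95% interval -0.08 to 0.19). Its CV of 5.0% and 4.14% within the groups was among the lowest of the members.

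AKT2 (NCBI gene 208, chr19:40230317-40285536, minus strand) is the paralog best known for insulin-stimulated glucose handling. Its counts were 3213, 3480 and 3855 in the controls and 3532, 3239 and 3318 in the knock-down libraries. The knock-down libraries lay inside the control range. The log2 fold change was -0.06 (95% interval -0.20 to 0.09). AKT1 and AKT2 had similar counts, but in FPKM, with the authors' lengths, AKT1 was 2.35 ± 0.24 times AKT2 in the controls and 2.52 ± 0.06 times in the knock-down libraries (SD, n = 3 each). AKT1 thus made up 70.0% ± 2.26 and 71.6% ± 0.51 of the pair in FPKM, and 47.1% ± 2.65 and 48.9% ± 0.62 in counts.

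FOXO1 (NCBI gene 2308, chr13:40555667-40666641, minus strand) encodes a factor that is central to early B cell development and is held out of the nucleus by AKT. It had 52, 49 and 58 counts in the controls and 14, 25 and 24 in the knock-down libraries. Every knock-down library was below every control, the lowest being library 1, and the gap between the groups was wider than the range within either of them. In FPKM the levels were 0.284 ± 0.018 and 0.115 ± 0.036 (SD, n = 3 each), so the transcript was scarce in both groups. The log2 fold change was -1.32 (SE 0.28, 95% interval -1.93 to -0.71), a fold of 0.401. With 1 library left out it lay between -1.48 and -1.08. Its mean FPKM was under 1, so the fits on FPKM did not include it. A long noncoding RNA gene absent from the count table overlaps FOXO1 on the same strand, and another overlaps AKT2. Whether their reads entered the FOXO1 or AKT2 counts was not tested.

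The promoter of FOXO1 is shown as that of the member with the largest difference. It held 4 copies of GGGCGG, in capitals, and no TGTTTAC, read on the minus strand at chr13:40666642-40666891 of GRCh38.p14:
FOXO1 promoter: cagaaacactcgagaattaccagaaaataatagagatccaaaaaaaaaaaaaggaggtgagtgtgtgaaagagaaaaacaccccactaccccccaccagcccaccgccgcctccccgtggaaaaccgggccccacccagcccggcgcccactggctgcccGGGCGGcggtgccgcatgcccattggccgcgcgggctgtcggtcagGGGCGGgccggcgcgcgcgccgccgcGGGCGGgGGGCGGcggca

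The 3 genes with the pattern most like that of FOXO1 over the 6 libraries were taken from 9277 other genes whose mean log2 CPM was 3 or more. They were RAE1 (Pearson's r = 0.989), which encodes an mRNA export factor, NONO (r = 0.988), a nuclear RNA-binding protein, and BLM (r = 0.984), a DNA helicase. Their log2 fold changes were -0.18, -0.13 and -0.31, much smaller than that of FOXO1. These r values are a description, since the best of many genes over 6 libraries of 2 groups were taken.

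FOXO3 (NCBI gene 2309, chr6:108559835-108684774, plus strand) encodes the FOXO factor best known for stress resistance and quiescence. It had 1363, 647 and 826 counts in the controls and 866, 784 and 932 in the knock-down libraries. Control library 1 stood apart above every other library, while the other controls lay around or below the knock-down libraries. Levels were 3.68 ± 1.5 and 3.38 ± 0.25 FPKM (SD, n = 3 each), and the CV of 40.8% among controls was the widest of all members in that group. The log2 fold change was -0.13 (95% interval -0.88 to 0.63). Without control library 1 its direction turned to 0.24, and the other fits with 1 library left out gave -0.33 to -0.08.

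Control library 1 was also the highest of the 6 in CPM for 3 of the 9 members, PIK3CA, PIK3CB and FOXO3, and for 25.9% of all tested genes. In PIK3CG it had 1591 counts beside 921 to 1356 elsewhere. It deviated from its group mean by over 0.5 on the log2 scale in 4.83% of tested genes, beside 1.80% to 3.64% in the other libraries. The part of this library in the values of FOXO3 is given by the fit without it.

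FOXO3 made up 92.2% ± 2.42 of the summed FPKM of FOXO1 and FOXO3 in the controls and 96.7% ± 1.03 in the knock-down libraries (SD, n = 3 each). The shares were 95%, 90.5% and 91.1% against 97.8%, 95.8% and 96.6%, without overlap. The ratio of FOXO3 to FOXO1 was 19.0, 9.55 and 10.3 in the controls and 44.7, 22.7 and 28.1 in the knock-down libraries. FOXO4, the remaining abundant FOXO gene and not a member, was above both in FPKM with the authors' lengths, at 7.16 ± 0.74 and 8.18 ± 0.49. In counts FOXO4 was below FOXO3 in every library, at 417 to 580 beside 647 to 1363, so their order depends on these lengths. With FOXO4, FOXO3 took 27.4% to 39.6% of the class FPKM in the controls and 27.3% to 31.7% in the knock-down libraries. The sum of FOXO1, FOXO3 and FOXO4 was 11.1 ± 2.22 and 11.7 ± 0.38 FPKM (SD, n = 3 each).

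**Figure D3:**
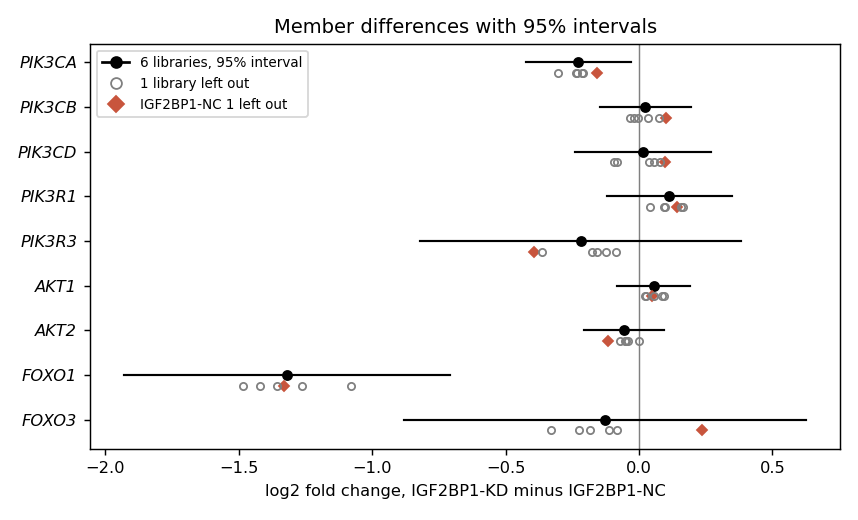
Log2 fold change (IGF2BP1-KD minus IGF2BP1-NC) of the 9 members with 95% intervals in black, and below each the 6 values with 1 library left out, that without control library 1 as a filled diamond. FOXO1 lies at -1.32 with all values below -1, PIK3CA at -0.23, and FOXO3 moves from -0.13 to 0.24 without control library 1.

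All members but AKT1, at 2957 bases, had an mRNA longer than the median of 2988 bases over 18399 genes. Their 3′ UTRs had a median of 3533 bases beside 1074 for all genes, and only that of AKT1, at 992 bases, was shorter than the overall median. The 5-base sequence GGACT, which fits the consensus around m6A that IGF2BP1 reads, was in 9 of 9 member mRNAs and in 89.0% of all. Per kilobase of mRNA it occurred a median of 1.23 times in members and 0.925 times in all genes. The sequence TGGAC, which was counted too, was nearly equal, at a median of 1.21 and 1.16 times. The density of GGACT was highest in AKT1, with 5 copies in 2957 bases (1.69 per kilobase). FOXO1 followed, with 9 in 5779 (1.56), and then PIK3CD, with 8 in 5412 (1.48). PIK3CA (0.864) and PIK3CB (0.799) had the lowest. A link of these densities to the differences between the groups was not tested. In the deposited annotation, 9 members carried the KEGG term for FoxO signaling and 8 that for PI3K-Akt signaling, FOXO1 being the exception.

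The other genes of the axis were read from the same fit over all genes, in 7 lists of 116 genes of which 104 were tested. Of these, 15 were higher and 16 lower in IGF2BP1-KD (29.8%), beside 28.2% of all tested genes. Their median log2 fold change was -0.03. By the KEGG terms of the deposited annotation, with the members left out, 16 of 98 tested FoxO signaling genes were higher and 20 lower (36.7%), and 27 of 207 tested PI3K-Akt signaling genes were higher and 44 lower (34.3%). No enrichment was tested for these lists or terms. A gene is called below where its adjusted p was under 0.05 (edgeR's quasi-likelihood test, Benjamini-Hochberg adjustment over 11994 genes).

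Of the paralogs of the members, PIK3C2A, a class II PI3K, fell by 0.30 (adjusted p = 0.023) and kept its call in 3 of the 6 fits with 1 library left out, with its largest adjusted p of 0.106 without IGF2BP1-KD 2. PIK3CG (-0.07), PIK3R2 (0.06) and FOXO4 (0.18) were not called.

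Of 11 tested adaptors that recruit PI3K, 2 rose and 2 fell. IRS1, the insulin receptor substrate, had 21, 44 and 36 counts in the controls and 9, 7 and 8 in the knock-down libraries (log2 fold change -2.05, adjusted p = 0.0028), without overlap. Its paralog IRS2, at 281 to 410 counts, was not called (0.26) except without control library 1 (0.43, adjusted p = 0.0068). GAB3 rose by 0.27 (adjusted p = 0.013; 0.0571 without IGF2BP1-KD 2) and SHC1 fell by 0.24 (adjusted p = 0.041; 0.147 without IGF2BP1-KD 3). With 1 library left out, GAB3 kept its call in 4 of 6 fits and SHC1 in 2.

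Of 13 tested phosphatases and inhibitors, 1 rose and 3 fell. INPP5D, which encodes the lipid phosphatase SHIP1, had 154, 145 and 104 counts in the controls and 264, 206 and 395 in the knock-down libraries (1.10, adjusted p = 0.013). PHLPP1, a phosphatase that acts on AKT itself, fell by 0.68 (adjusted p = 0.0012), while INPPL1 fell by 0.24 (adjusted p = 0.014; 0.0767 without IGF2BP1-KD 2) and INPP5E by 0.29 (adjusted p = 0.028; 0.102 without IGF2BP1-KD 3). With 1 library left out, INPPL1 kept its call in 5 of 6 fits and INPP5E in 3. PIK3IP1, with 21 to 38 counts, was not called (0.37).

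Of 18 tested AKT-activating kinases and mTOR complex genes, 1 rose and 1 fell. PDPK1 (-0.06) and MTOR (0.14) were not called in the 6 libraries, MTOR only without control library 3 (0.21, adjusted p = 0.046). RHEB, the GTPase that activates mTOR, rose by 0.22 (adjusted p = 0.016; 0.0677 without IGF2BP1-KD 2) and EIF4EBP1 fell by 0.29 (adjusted p = 0.046; 0.144 without IGF2BP1-KD 3). With 1 library left out, RHEB kept its call in 4 of 6 fits and EIF4EBP1 in only 1. Of 14 tested AKT substrates, 1 rose and 3 fell. ACLY, the citrate-cleaving enzyme of lipid synthesis, fell by 0.41 (adjusted p = 0.0023) and TBC1D4 by 0.41 (adjusted p = 0.015; 0.0733 without IGF2BP1-NC 2). CDKN1A fell by 1.54 (adjusted p = 0.029; 0.0955 without IGF2BP1-KD 2). It had 1110, 515 and 626 counts in the controls and 217, 248 and 303 in the knock-down libraries. Without control library 1 its log2 fold change was -1.14 (adjusted p = 0.00012). XIAP rose by 0.32 (adjusted p = 0.019; 0.0819 without IGF2BP1-NC 2). With 1 library left out, CDKN1A kept its call in 2 of 6 fits, and TBC1D4 and XIAP in 3 each.

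Of 18 tested FOXO partners and modifiers, 3 rose and 2 fell. YWHAH, a 14-3-3 protein of the kind that binds phosphorylated FOXO, had 3755 to 4306 counts in the controls and 2232 to 2322 in the knock-down libraries (-0.81, adjusted p = 1.8e-05). The other 14-3-3 genes of the list, given beside it outside the naming rule, were not called. They were YWHAB (0.052), YWHAE (-0.042), YWHAG (0.066), YWHAQ (0.044), YWHAZ (-0.035) and the scarce SFN (-0.735). SKP2, a ubiquitin ligase subunit, fell by 0.28 (adjusted p = 0.0068). CREBBP, an acetyltransferase, rose by 0.46 (adjusted p = 0.0031), as did the deacetylase SIRT2 by 0.27 (adjusted p = 0.015; 0.0643 without IGF2BP1-KD 2) and DYRK1A by 0.26 (adjusted p = 0.013; 0.0661 without IGF2BP1-KD 2). With 1 library left out, SIRT2 kept its call in 3 of 6 fits and DYRK1A in 4.

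Of 27 tested genes described as FOXO targets, 6 rose, 5 fell and 16 were not called, and the median log2 fold change was 0.26. The 11 called genes were 40.7% of the list, beside 28.2% of all tested genes. The list did not separate genes that FOXO factors raise from genes that they lower. Its counts and median thus give no direction of FOXO activity. PINK1, a mitochondrial kinase, had 224 to 265 counts in the controls and 497 to 558 in the knock-down libraries (1.12, adjusted p = 3.3e-05). CCNG2 rose by 1.02 (adjusted p = 0.0094) and CCND1 by 0.74 (adjusted p = 0.00096). CCND2 had 1654, 966 and 841 counts in the controls and 318, 308 and 278 in the knock-down libraries (-1.93, adjusted p = 0.0091; 0.0543 without IGF2BP1-KD 3). PRDX3, a mitochondrial peroxidase, fell by 0.84 (adjusted p = 8.4e-06), and the fall of CDKN1A, in this list too, is given above. KLF2, a zinc finger factor named here after its values were seen, had 4, 6 and 9 counts in the controls and 38, 40 and 44 in the knock-down libraries (2.67, adjusted p = 0.00033). Control library 1 was the highest library for 8 of the 27 (29.6%). In the fit without it, 11 of the 27 were higher (40.7%) and 5 lower (18.5%). Of the 11994 genes tested in the 6 libraries, 15.8% were higher and 17.2% lower in that fit. The called genes of all pathway lists together numbered 31 in the 6 libraries and 37 without control library 1. They numbered 17 to 27 when any other library was left out. Counts of the FOXO target list alone are not given for those other fits, so nothing is read from the fit without control library 1.

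**Figure D4:**
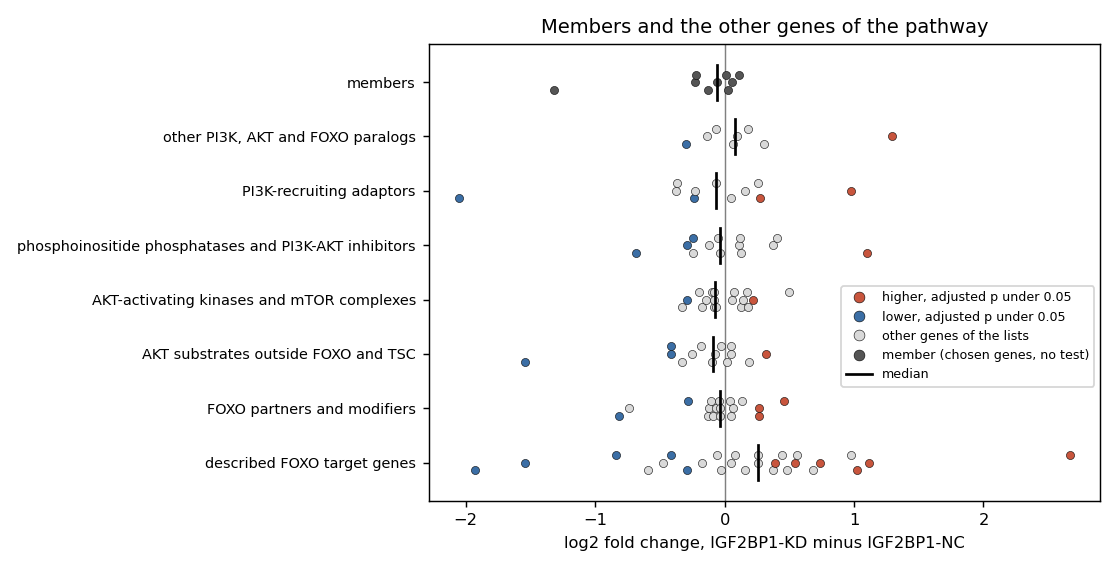
Log2 fold change (IGF2BP1-KD minus IGF2BP1-NC) of the 9 members and of the tested genes of the 7 pathway lists, 1 point a gene, with red for higher and blue for lower genes with an adjusted p under 0.05, grey for the others, dark grey for members, and a bar at each median. The medians lie between -0.09 and 0.26, and the point farthest to the right is KLF2 at 2.67.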

How the data were processed

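RNA of 6 libraries was analysed, grouped by the labels into 3 IGF2BP1-NC and 3 IGF2BP1-KD. The authors ran Trimmomatic, HISAT2 (GRCh38) and HTSeq, and they deposited whole-number counts without normalization. The FPKM values the authors deposited equalled the count per gene length and library total. Versions, annotation release, gene lengths and strand setting are not given in the sources used here.

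The members and lists were chosen with earlier results of these data known. Counts were fitted over all genes with edgeR 4.0.16 (TMM, filterByExpr, robust quasi-likelihood test, two-sided) in R 4.3.3, with Benjamini-Hochberg adjusted p under 0.05 as the threshold. Intervals are 95% from the fit. Alternatives were DESeq2 1.42.0, other scalings and filters, limma 3.58.1 (voom, or log2(FPKM + 1) and log2(FPKM + 0.1) where the mean FPKM reached 1), a replicate block, and each library left out. The fits were tested on simulated data.

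Named were the 9 members, IGF2BP1, PDPK1, MTOR, PIK3CG, PIK3R2, FOXO4, IRS1, IRS2, INPP5D, PIK3IP1, in each list up to 3 largest rises and 3 largest falls past the threshold whose mean log2 CPM reached 3, and the 3 genes most correlated with the member of largest difference. KCNMB3 and CLSTN1 were added as overlapping genes. The rule also took 2 genes that are not reported here. Transcripts came from GENCODE release 44, and promoters from RefSeq (GRCh38.p14), where all 9 members matched.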

Additional observations from a re-analysis of the deposited data

How the results depend on the processing

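The count of genes with an adjusted p under 0.05 (3386) was 2290 to 3991 with 1 library left out, and that of the 7 pathway lists (31) was 17 to 37, the lowest without IGF2BP1-KD 2. The members past the threshold (1) numbered 1 to 2 with 1 library left out, PIK3CA being the second without IGF2BP1-NC 2 (log2 fold change -0.30), and 0 in the fits of log2(FPKM + 1) and log2(FPKM + 0.1), in which FOXO1 was too low to be included. With the replicate block, 2913 genes, 26 list genes and 1 member were past the threshold, and CDKN1A and INPP5D were among the genes that lost their calls. Deviations of libraries with the same number correlated at -0.05, 0.04 and -0.11, so no strong shared deviation was seen. These values cannot decide whether libraries with the same number shared a culture or batch. DESeq2, the other scalings, filters and voom kept these counts within 1.5 times. Over all genes taken by the naming rule and all alternatives, calls were lost in 59 fits, gained in 2 and unchanged in 441. EIF4EBP1 and SHC1 lost theirs with library size only, with upper-quartile factors and in both FPKM fits, among others. Member differences moved by less than the spread between replicates in all 131 alternatives, although PIK3CB, PIK3CD, AKT2 and FOXO3 changed sign with 1 library left out, and no called gene that is named reversed its direction. FOXO1 rested on 14 to 58 counts a library, and PIK3R3 on 27 to 42, so that differences of the size seen in PIK3CA would not be detectable in them at this depth.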
